A study of Mus musculus with 26 samples.

Results

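The 8 genes described here serve the presentation of antigen by class II molecules of the major histocompatibility complex (MHC): H2-Aa, H2-Ab1, H2-Eb1, Cd74, Ciita, H2-DMa, H2-Oa and H2-Ob. They were chosen by name from 19938 genes measured by 1 named probe set or more, with the probe set of highest mean over the arrays taken for each symbol, and each of the 8 had 1 probe set. Their signals were followed over 26 arrays of RNA from blood stem and progenitor cells, sorted from bone marrow of mice of genotype Gata1-EGFP Tg/+. All groups share this genotype, in which a green fluorescent protein (GFP) reports Gata1, and all mice were 8 to 15 weeks old. There were no mice without the reporter, and the strain, which sets the H2 alleles, is not given in the sources used here. Sorting began from lineage-negative cells. Stem cells without reporter signal (HSC GFP-, 3 arrays) were cKit+, Sca1+, CD150+ and Flt3-, and lymphoid-primed multipotent progenitors (LMPP, 4 arrays) were cKit+, Sca1+ and CD150- with high Flt3, also without reporter signal. Common lymphoid progenitors (CLP, 3 arrays) lacked B220 and carried low Sca1, low cKit, Flt3 and IL-7Ra. The other groups were cKit+ and negative for Sca1 and CD41. Those positive for FcgRII/III were granulocyte-macrophage progenitors without (GMP GFP-, 4 arrays) and with reporter signal (GMP GFP+, 3 arrays). Cells negative for FcgRII/III, CD150 and CD105 were their precursors, PreGM GFP- and PreGM GFP+, with 3 arrays each. Cells that were negative for FcgRII/III and CD105 and carried CD150 were pre-megakaryocyte-erythroid progenitors (PreMegE, 3 arrays). The labels give no reporter gate for CLP and PreMegE, and HSC with reporter signal are not analysed here.

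Class II molecules are pairs of an alpha and a beta chain that display peptides from endosomes to CD4 T cells, and in the mouse they come as I-A, made of the H2-Aa and H2-Ab1 products, and I-E, whose beta chain H2-Eb1 encodes. The invariant chain Cd74 guides new class II molecules to the endosome, H2-DM exchanges the remnant of the invariant chain for peptide, and H2-DO, the pair of the H2-Oa and H2-Ob products, binds and restrains H2-DM. Ciita is the coactivator that switches class II genes on in dendritic cells, macrophages and B cells, where class II is best known. It acts at promoters through factors bound to conserved elements called the X and Y boxes.

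Of the members, 6 lie on chromosome 17, in the order H2-Oa, H2-DMa, H2-Ob, H2-Ab1, H2-Aa and H2-Eb1, in a stretch of 13 protein-coding genes of RefSeq's GRCm38.p6. From RefSeq's table of promoters, 6 windows of 5 of the 8 members were read. No window was read for H2-Ab1, Cd74 and Ciita, so the motifs were not sought there. The 250 bases before the start were searched on both strands for GCAAC, letters found in X boxes, and for TGATTGG, the CCAAT letters of Y boxes read from the other strand. A combination was counted where GCAAC was followed on the same strand by TGATTGG with 15 to 45 bases between, and the motifs do not overlap. This combination was in the windows of 4 members, H2-Aa, H2-Eb1, H2-Oa and H2-Ob, and in 84 of all 32851 windows, or 0.256%. Alone, GCAAC was in 29.9% and TGATTGG in 7.23% of all windows. The 4 windows are shown because genes with different orders of the sorted groups, H2-Aa and H2-Oa, hold the same arrangement, with both motifs in capitals.
H2-Aa, chr17:34287824-34288073, minus strand: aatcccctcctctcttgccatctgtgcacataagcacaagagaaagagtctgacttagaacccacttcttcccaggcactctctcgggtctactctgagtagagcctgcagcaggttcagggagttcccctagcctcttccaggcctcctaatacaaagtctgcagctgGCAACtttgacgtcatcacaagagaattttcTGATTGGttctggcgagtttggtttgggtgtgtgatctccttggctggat
H2-Eb1, chr17:34305617-34305866, plus strand: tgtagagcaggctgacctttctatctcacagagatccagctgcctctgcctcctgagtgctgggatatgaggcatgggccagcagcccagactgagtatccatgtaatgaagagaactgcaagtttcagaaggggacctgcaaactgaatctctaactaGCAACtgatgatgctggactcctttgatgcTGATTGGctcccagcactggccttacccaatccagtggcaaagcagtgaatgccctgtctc
H2-Oa, chr17:34092129-34092378, plus strand: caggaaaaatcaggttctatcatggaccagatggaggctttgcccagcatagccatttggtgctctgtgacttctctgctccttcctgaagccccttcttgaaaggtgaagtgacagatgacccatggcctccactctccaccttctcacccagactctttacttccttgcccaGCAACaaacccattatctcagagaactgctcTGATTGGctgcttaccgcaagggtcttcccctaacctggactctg
H2-Ob, chr17:34238655-34238904, plus strand: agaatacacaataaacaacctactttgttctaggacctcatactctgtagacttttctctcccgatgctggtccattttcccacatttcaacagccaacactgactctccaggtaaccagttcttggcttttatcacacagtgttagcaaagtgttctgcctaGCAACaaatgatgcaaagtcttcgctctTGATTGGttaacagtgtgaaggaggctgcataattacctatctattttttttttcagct
The motifs were 26 bases apart in H2-Aa and H2-Oa, 25 in H2-Eb1 and 23 in H2-Ob. GCAAC began 81 bases before the start of H2-Aa, 91 before H2-Eb1, 76 before H2-Oa and 87 before H2-Ob. H2-DMa had windows at chr17:34122582-34122831 and chr17:34125268-34125517 on the plus strand. The first held GCAAC without TGATTGG, and the second held neither. A match of letters is a description of the sequence, and no binding was measured.

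Signals are log2 values, and 6.61, the median of all values, is used as a reference: signal below it was not shown to exceed background, and a difference from a mean below it is given on the log2 scale without a fold. Array medians over all probe sets lay between 6.42 and 6.70, and correlations between arrays over all genes were 0.950 to 0.989 within groups and 0.923 to 0.983 between them. Gata1 was higher in the reporter-positive cells of both gates, by 1.75 (PreGM) and 1.67 (GMP). Arrays 1 and 2 of PreGM GFP- lay farthest from their group's mean of any arrays, with median absolute deviations of 0.197 and 0.192 over genes, followed by array 3 of GMP GFP+ with 0.155 and array 1 of HSC GFP- with 0.143. The PreGM GFP- and HSC GFP- arrays named also carried high class II signals, so calls that change without an array are given with both values. The labels name no animals, and if arrays of a group shared one, the p-values given here cover technical spread. In bulk RNA, fewer cells that express a gene and less RNA in each cell cannot be told apart.

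**Figure D1:**
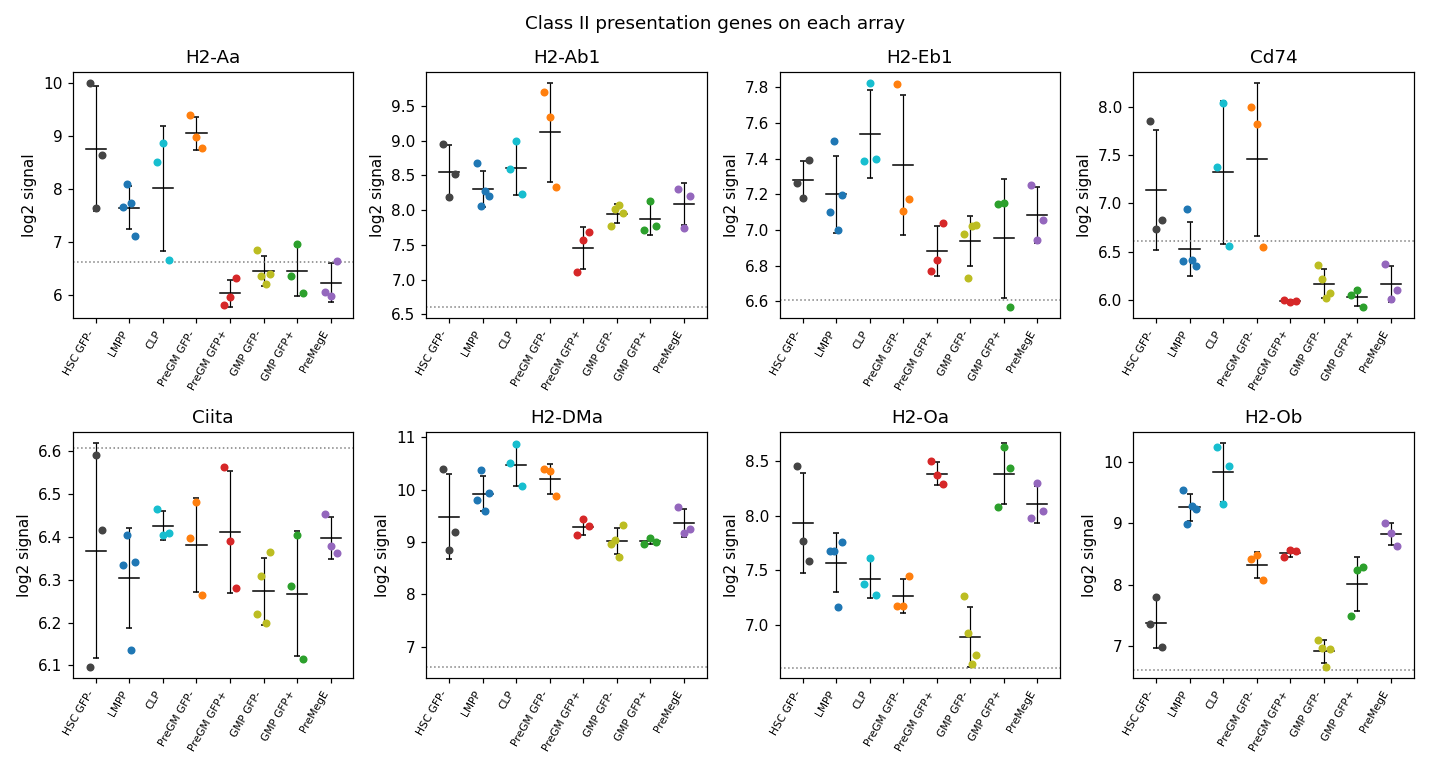
Log2 signal of each of the 8 genes (1 panel per gene, each with its own vertical range) on every array, by sorted group. Points are arrays, bars the group mean with SD, and the dotted line the median of all values, 6.61; H2-Aa, H2-Ab1 and Cd74 have their highest means in PreGM GFP-, H2-Oa in the reporter-positive progenitors, and H2-Ob in CLP and LMPP.

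Over the 8 groups, 6 of the 8 members differed by limma's moderated F test at a Benjamini-Hochberg adjusted p under 0.05, beside 15.2% of all genes. The exceptions were H2-Eb1 (adjusted p = 0.0833) and Ciita (adjusted p = 0.839). In tests of all 28 pairs of groups the members gave 66 calls of 224, beside 4.03% of gene and pair combinations over all genes. H2-Ob differed in 17 pairs, H2-Aa and H2-Oa in 12 each, Cd74 in 9, H2-DMa in 8, H2-Ab1 in 6, H2-Eb1 in 2 and Ciita in 0. For each member, no group differed from the next group in the order of its means.

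H2-Aa, the alpha chain of I-A, spanned the widest range of group means among the members, 3.02 log2 units. Its signals were 9.39, 8.97 and 8.77 in PreGM GFP-. They were 9.99, 7.64 and 8.63 in HSC GFP-. In CLP they were 8.50, 8.85 and 6.66, so that the third array lay far below its group. LMPP arrays read 7.65, 8.08, 7.73 and 7.10. In the other groups most arrays were below the median of all values: 6.85, 6.35, 6.21 and 6.38 in GMP GFP-, 6.36, 6.95 and 6.02 in GMP GFP+. They read 6.05, 5.97 and 6.64 in PreMegE and 5.81, 5.96 and 6.31 in PreGM GFP+. By their means, PreGM GFP-, HSC GFP-, CLP and LMPP stood above the other groups. CLP array 3 lay below single arrays of GMP GFP- and GMP GFP+, so the arrays overlapped. The step in the means from LMPP to GMP GFP- was 1.19 and did not pass (adjusted p = 0.0904, limma).

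H2-Ab1, the beta chain of I-A, was above the median on every array. Its signals were 9.70, 9.34 and 8.33 in PreGM GFP- and 8.59, 9.0 and 8.23 in CLP. In HSC GFP- they were 8.95, 8.19 and 8.51, and in LMPP 8.67, 8.06, 8.27 and 8.20. These groups overlapped. PreMegE arrays read 8.31, 7.74 and 8.20, GMP GFP- arrays 7.77, 8.01, 8.07 and 7.95, and GMP GFP+ arrays 7.72, 8.13 and 7.77. PreGM GFP+ was lowest, with 7.12, 7.57 and 7.68, each below every array of every other group.

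H2-Eb1, the beta chain of I-E, varied least of the chain genes, with group means from 6.88 ± 0.14 (SD, n = 3) in PreGM GFP+ to 7.54 ± 0.25 (SD, n = 3) in CLP. Its highest arrays were 7.82 in CLP and 7.82 in PreGM GFP-, and its lowest was 6.57 in GMP GFP+. H2-Ea, which encodes the alpha chain of I-E, had means below the median in all groups, from 5.18 to 5.54.

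Cd74, the invariant chain, followed H2-Aa. Its signals were 8.00, 7.82 and 6.55 in PreGM GFP-, with the third array well below the other two. They were 7.38, 8.04 and 6.56 in CLP, where again array 3 was low. HSC GFP- arrays read 7.85, 6.73 and 6.83, and LMPP arrays 6.41, 6.94, 6.42 and 6.35. Every array of the other groups was below the median of all values. These read 6.36, 6.22, 6.02 and 6.07 in GMP GFP-, 6.06, 6.10 and 5.93 in GMP GFP+, and 6.37, 6.01 and 6.11 in PreMegE. The PreGM GFP+ arrays, at 6.0, 5.98 and 5.99, had an SD of 0.0114.

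H2-DMa, a chain of the peptide exchanger H2-DM, had clear signal in every group. Its signals were 10.50, 10.88 and 10.06 in CLP, 10.40, 10.36 and 9.88 in PreGM GFP-, and 9.80, 10.37, 9.60 and 9.95 in LMPP. HSC GFP- gave 10.41 on array 1 and 8.85 and 9.20 on the others. The lower groups were close together, with 9.68, 9.17 and 9.25 in PreMegE, 9.13, 9.44 and 9.30 in PreGM GFP+, 8.97, 9.04, 8.72 and 9.33 in GMP GFP-, and 8.97, 9.07 and 9.0 in GMP GFP+. CLP exceeded HSC GFP- by 1.0 (adjusted p = 0.0378), PreMegE by 1.12 (adjusted p = 0.0208) and GMP GFP- by 1.47 (adjusted p = 0.00092), by limma.

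H2-Oa, the alpha chain of the H2-DM inhibitor H2-DO, had another order of groups. Its signals were 8.50, 8.38 and 8.29 in PreGM GFP+ and 8.08, 8.63 and 8.44 in GMP GFP+. PreMegE followed with 7.98, 8.30 and 8.04, and HSC GFP- with 8.46, 7.77 and 7.59. They were 7.67, 7.67, 7.17 and 7.76 in LMPP and 7.38, 7.62 and 7.27 in CLP. Reporter-negative PreGM gave 7.18, 7.18 and 7.45, and reporter-negative GMP 7.26, 6.93, 6.64 and 6.72. Every array of the reporter-positive groups lay above every array of LMPP, CLP, PreGM GFP- and GMP GFP-. PreMegE exceeded GMP GFP- by 1.22 (adjusted p = 0.00013) and PreGM GFP- by 0.84 (adjusted p = 0.0206).

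H2-Ob, the beta chain of H2-DO, had its highest means in CLP and LMPP. Its signals were 10.24, 9.30 and 9.93 in CLP and 9.53, 8.98, 9.28 and 9.23 in LMPP. CLP exceeded PreMegE by 1.0 (adjusted p = 0.00877, limma). LMPP exceeded PreMegE by 0.44, which did not pass (adjusted p = 0.337). PreMegE arrays read 9.0, 8.83 and 8.63, PreGM GFP+ arrays 8.44, 8.56 and 8.54, and PreGM GFP- arrays 8.41, 8.48 and 8.08. GMP GFP+ gave 7.49, 8.23 and 8.29. HSC GFP-, with 7.35, 7.79 and 6.98, and GMP GFP-, with 7.09, 6.96, 6.65 and 6.95, were lowest. The chains of H2-DO thus did not share 1 order: HSC GFP- ranked 4 for H2-Oa and 7 for H2-Ob, and CLP ranked 6 and 1.

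Ciita was below the median in every group, with group means from 6.27 to 6.43 and no array above 6.59. The spread between the group means, 0.158, was less than the SD of the 3 HSC GFP- arrays, 0.250. No order of groups is read from it.

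The first question the design poses is how reporter-positive cells differ from reporter-negative cells of the same gate. In PreGM, the I-A chains and the invariant chain were lower with the reporter and H2-Oa was higher. H2-Aa fell by 3.02 log2 units (SE 0.48, 95% interval -4.01 to -2.03, adjusted p = 0.000449) and H2-Ab1 by 3.17-fold (95% interval 2.14 to 4.71, adjusted p = 0.000738). Cd74 fell by 1.47 (SE 0.33, adjusted p = 0.016). H2-Oa was 2.18-fold higher (95% interval 1.62 to 2.92, adjusted p = 0.002). These are 3 members lower, beside 1.14% of all genes, and 1 higher, beside 0.908%, by limma with Benjamini-Hochberg adjustment. The median difference of the 8 was -0.71, against 0.04 over all genes. H2-DMa (-0.92, adjusted p = 0.124) and H2-Eb1 (-0.49, adjusted p = 0.275) did not pass, although their arrays did not overlap between the groups. H2-Ob differed by 0.19 (95% interval -0.29 to 0.67, adjusted p = 0.876) and Ciita by 0.03 (adjusted p = 0.976). H2-Aa, H2-Ab1 and H2-Oa passed whichever array was left out, with H2-Aa between -3.16 and -2.85 and H2-Ab1 between -2.06 and -1.38. Cd74 did not pass without PreGM GFP- array 1 (-1.20, adjusted p = 0.135) or array 2 (-1.29, adjusted p = 0.0785), nor without PreGM GFP+ array 1, 2 or 3 (adjusted p = 0.0583, 0.0548 and 0.0573). With the spread taken from the compared groups alone, H2-Ab1 (adjusted p = 0.0591) and Cd74 (adjusted p = 0.105) did not pass, and with array weights Cd74 did not (adjusted p = 0.051).

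Some markers of other cell types moved in the same comparison. Of 13 monocyte and macrophage markers, 3 fell with the reporter and 0 rose: Mpeg1 (-3.16), Ccr2 (-3.0) and Csf1r (-1.65, adjusted p = 2.13e-05, 0.000752 and 0.00132 in this order). The mean signal of this list was 6.72 to 6.82 on PreGM GFP- arrays and 6.03 to 6.11 on PreGM GFP+ arrays. The median difference of its markers was -0.05, against 0.04 over all genes, so most of the list did not move with the 3. Its members C1qc, Adgre1 and Mertk had means below the median in both groups. Of 14 dendritic cell and 13 B cell markers none passed, with list means of 6.69 to 6.82 against 6.49 to 6.55 and of 6.22 to 6.93 against 6.16 to 6.24. The B cell list reached 6.73 and 6.93 on PreGM GFP- arrays 1 and 2 and 6.22 on array 3, and the list of T and NK cells 6.65 and 6.40 on arrays 1 and 2 and 6.15 on array 3. Of the 13 B cell markers, 5 to 7 were above the median of all values on PreGM GFP- arrays and 5 on each PreGM GFP+ array, and of the 11 T and NK cell markers 3 to 4 in both groups. The median difference was -0.42 over the B cell list and -0.16 over the T and NK cell list, against 0.04 over all genes. Which markers raised these lists on arrays 1 and 2 is not given here. The B cell markers Igll1 and Pax5 had means of 7.51 and 6.88 in PreGM GFP- and of 7.07 and 6.77 in PreGM GFP+. Ms4a1, Cd79a, Ebf1, Cd3d and Cd3g had means below the median in both groups. These are examples and do not stand for their lists, whose median differences were below that of all genes. On PreGM GFP- array 3 the monocyte list was at 6.72 and the dendritic list at 6.69, above every PreGM GFP+ array. H2-Aa at 8.77, H2-Ab1 at 8.33 and Cd74 at 6.55 on that array were also above every PreGM GFP+ array. The part of other cell types in the class II differences was not tested.

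In GMP, the members that passed were the chains of H2-DO. H2-Oa was 2.83-fold higher in reporter-positive cells (95% interval 2.15 to 3.72, adjusted p = 1.62e-05) and H2-Ob 2.13-fold higher (95% interval 1.56 to 2.90, adjusted p = 0.0024), with no overlap of arrays for either. These are 2 of 8 members higher, beside 3.22% of all genes, and 0 lower, beside 4.05%, by limma. No other member reached an unadjusted p under 0.05, which 4545 of all 19938 genes did. The I-A chains did not pass: H2-Aa differed by 0.00 (95% interval -0.93 to 0.92) and H2-Ab1 by -0.08 (95% interval -0.61 to 0.45). H2-DMa differed by 0.00 (95% interval -0.56 to 0.55), Cd74 by -0.14, H2-Eb1 by 0.01 and Ciita by 0.00. H2-Aa, Cd74 and Ciita had means below the median of all values in both GMP groups, so a fall in them could go unseen. Leaving out each array in turn kept both calls, with H2-Oa between 1.38 and 1.65 and H2-Ob between 0.95 and 1.35. Of the monocyte and macrophage markers, 4 fell with the reporter here (Mpeg1 -2.30, Ccr2 -2.25, Csf1r -1.54 and Vcam1 -0.88) and 1, C1qb, was higher by 0.69. Their list mean was 6.62 to 7.07 without and 6.24 to 6.41 with the reporter, and the median difference of the list was 0.05, against 0.08 over all genes. Of the B cell markers 1 rose, Cr2, by 0.48 and below the median, and of the dendritic, T and NK cell markers none passed; their part was not tested.

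The reporter difference was then compared between the gates. For H2-Aa it was 3.02 higher in GMP than in PreGM (SE 0.65, adjusted p = 0.0247) and for H2-Ab1 1.59 higher (SE 0.38, adjusted p = 0.0491), by limma's interaction contrast. The H2-Aa means were 6.45 in GMP GFP- and 6.44 in GMP GFP+, both below the median of all values. A reporter difference of H2-Aa in GMP could therefore go unseen, while H2-Ab1 was above the median in both GMP groups. These are 2 members in this direction, beside 0.517% of all genes, and 0 in the other, beside 0.186%. For Cd74 (1.33, adjusted p = 0.354), H2-DMa (0.92, adjusted p = 0.567) and H2-Ob (0.90, adjusted p = 0.375) the difference did not pass. Without PreGM GFP- array 3 it passed for Cd74 (1.78, adjusted p = 0.0405). For H2-Oa it was 0.38 (95% interval -0.20 to 0.96, adjusted p = 0.836). Both calls were marginal. H2-Aa did not pass without GMP GFP- array 2 or 3, GMP GFP+ array 1 or 2, any of PreGM GFP- arrays 1 and 2, or PreGM GFP+ array 1 or 2 (adjusted p from 0.0519 to 0.0851), with values from 2.76 to 3.06. H2-Ab1 did not pass on leaving out any array of these groups other than PreGM GFP- array 3 (adjusted p from 0.0581 to 0.173). H2-Ab1 did not pass either with the spread of the compared groups alone or with arrays centred on their medians (adjusted p = 0.106 in each), with array weights (adjusted p = 0.0614) or with a trended robust prior (adjusted p = 0.0552).

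**Figure D2:**
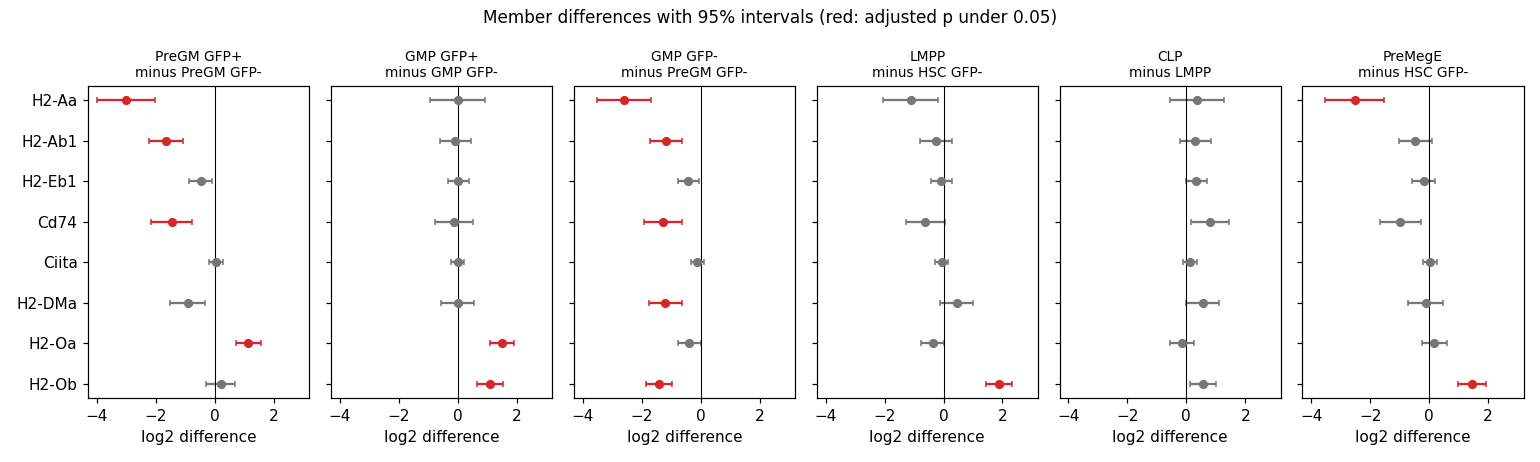
Log2 difference of each member in 6 comparisons, first-named group minus second, with 95% intervals from limma; red marks an adjusted p under 0.05. In PreGM the reporter goes with lower H2-Aa, H2-Ab1 and Cd74 and higher H2-Oa, in GMP with higher H2-Oa and H2-Ob, and H2-Ob is higher in LMPP and PreMegE than in HSC GFP-.

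Between PreGM and GMP without reporter signal, most class II genes were lower in GMP. H2-Aa differed by -2.60 (GMP GFP- minus PreGM GFP-, SE 0.45, adjusted p = 0.00187), H2-Ab1 was 2.25-fold lower (adjusted p = 0.0176), Cd74 differed by -1.29 (adjusted p = 0.0371), and H2-DMa was 2.30-fold (adjusted p = 0.0201) and H2-Ob 2.65-fold lower (adjusted p = 0.000487). With 5 of 8 members lower, beside 0.471% of all genes, and 0 higher, beside 0.918%, the members' median was -1.19 against -0.01 over all genes. H2-Oa (-0.38, adjusted p = 0.642), H2-Eb1 (-0.43, adjusted p = 0.424) and Ciita (-0.11, adjusted p = 0.959) did not pass. This comparison shares the PreGM GFP- arrays with the reporter comparison in PreGM, so the values are not separate evidence. H2-Aa and H2-Ob passed whichever array was left out. Without PreGM GFP- array 1, H2-Ab1 (-0.88, adjusted p = 0.124), Cd74 (-1.02, adjusted p = 0.175) and H2-DMa (-1.11, adjusted p = 0.0945) did not, and likewise without array 2 (-1.06, -1.11 and -1.13, adjusted p = 0.118, 0.221 and 0.114). Without GMP GFP- array 1 none of these passed (adjusted p = 0.0606, 0.0606 and 0.0558), and without array 3 Cd74 and H2-DMa did not (adjusted p = 0.1 and 0.0741). Cd74 did not pass either without GMP GFP- array 2 (adjusted p = 0.0836) or array 4 (adjusted p = 0.0852). With the spread of the compared groups alone H2-Ab1 (adjusted p = 0.115) and Cd74 (adjusted p = 0.114) did not pass, and with array weights H2-Ab1 (adjusted p = 0.154), Cd74 (adjusted p = 0.168) and H2-DMa (adjusted p = 0.0772) did not. Cd74 was also lost with arrays centred on their medians (adjusted p = 0.061) and with quantile normalization (adjusted p = 0.0694). The list of B cell markers was at 5.90 to 6.18 in GMP GFP- against 6.22 to 6.93 in PreGM GFP-. The dendritic list was at 6.34 to 6.53 against 6.69 to 6.82, so neither list overlapped between the groups. The monocyte list was at 6.62 to 7.07 against 6.72 to 6.82, and the list of T and NK cells at 6.14 to 6.28 against 6.15 to 6.65. Vcam1, higher by 1.31, was the only marker of any list that passed. The part of other cell types was not tested. In reporter-positive cells, GMP GFP+ against PreGM GFP+ gave 0 members higher and 0 lower, beside 0.792% and 0.226% of all genes. There 1 member, H2-Ob (-0.51, 95% interval -0.99 to -0.03, adjusted p = 0.632), had an unadjusted p under 0.05, beside 1486 of all 19938 genes.

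From HSC to LMPP, H2-Ob was 3.69-fold higher (95% interval 2.70 to 5.03, adjusted p = 9.18e-06, limma), with no overlap of arrays. This was 1 of 8 members, beside 1.03% of all genes higher, and 0 were lower, beside 1.28%. H2-Aa was at -1.12 (adjusted p = 0.281) and Cd74 at -0.61 (adjusted p = 0.467), with arrays overlapping. HSC GFP- array 1 weighed on this comparison: without it H2-DMa was higher in LMPP by 0.90 (adjusted p = 0.0384), against 0.44 (adjusted p = 0.574) with it. On that array H2-Aa was 9.99, Cd74 7.85 and H2-DMa 10.41, each the highest of its group. The dendritic list was at 6.59 on this array and at 6.54 to 6.59 in the group. The B cell list was at 6.04 and 5.90 to 6.32, and the monocyte list at 6.12 and 6.08 to 6.20. In this comparison 1 monocyte marker rose, Mpeg1 by 2.09, and 1 dendritic marker fell, Fscn1 (-0.48). The part of other cell types in these values, and in those of HSC GFP- array 1, was not tested.

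From LMPP to CLP no member passed, beside 0.828% of all genes higher and 0.747% lower. An unadjusted p under 0.05 was reached by 2 members, Cd74 (0.79, adjusted p = 0.334) and H2-Ob (0.57, adjusted p = 0.305), beside 2015 of all 19938 genes. All members but H2-Oa (-0.15) had a higher mean in CLP, and every one overlapped between arrays. With array weights, which give arrays that deviate less influence, Cd74 passed (0.89, adjusted p = 0.0363). Lineage markers did change: 7 of 13 B cell markers, 6 of 14 dendritic markers and 1 of 13 monocyte markers were higher in CLP and 0 lower, among them Vpreb1 by 3.84, Blnk by 3.36, Ly6d by 3.42 and Siglech by 3.14. The CLP arrays differed in these lists. Array 3, on which H2-Aa and Cd74 were low, had the lowest dendritic list, 7.22 against 8.16 and 7.95, and the highest B cell list, 7.91 against 7.34 and 7.11. These shifts stand beside the class II values, and their part was not tested.

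Set against PreGM GFP-, CLP had 2.83-fold higher H2-Ob (95% interval 2.03 to 3.95, adjusted p = 0.000414, limma). This was 1 of 8 members, beside 0.742% of all genes, and 0 were lower, beside 0.787%. H2-Aa was at -1.04 (adjusted p = 0.493), H2-Ab1 at -0.51, Cd74 at -0.13, H2-Eb1 at 0.17, H2-DMa at 0.27, H2-Oa at 0.16 and Ciita at 0.04. The H2-Ob call was lost with the spread of the compared groups alone (adjusted p = 0.0512). In this comparison 5 of 13 B cell, 6 of 14 dendritic and 1 of 13 monocyte markers were higher in CLP, and their part was not tested.

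Between PreGM GFP- and LMPP, H2-Ob was 1.91-fold lower in PreGM GFP- (adjusted p = 0.0365), 1 of 8 members, beside 0.476% of all genes lower and 0.396% higher, with 0 members higher. H2-Aa was at 1.40 (adjusted p = 0.203), with no overlap of arrays and H2-Ab1 at 0.82 (adjusted p = 0.19). The call on H2-Ob did not pass without LMPP array 1, 3 or 4 (adjusted p = 0.123, 0.0919 and 0.0853) or without any of PreGM GFP- arrays 1, 2 and 3 (adjusted p = 0.0833, 0.0691 and 0.162). It did not pass with array weights (adjusted p = 0.394) or with the spread of the compared groups alone (adjusted p = 0.0636). Without PreGM GFP- array 3, the array with the lowest H2-Ab1 and Cd74 of its group, H2-Ab1 (1.22, adjusted p = 0.0119) and Cd74 (1.38, adjusted p = 0.0274) passed. Among markers Ccr2 was higher in PreGM GFP- by 2.49, and its part was not tested.

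PreMegE was compared with HSC GFP-. H2-Aa was lower in PreMegE (-2.53, SE 0.48, adjusted p = 0.00217) and H2-Ob 2.73-fold higher (95% interval 1.96 to 3.80, adjusted p = 0.000358). These are 1 member lower, beside 2.19% of all genes, and 1 higher, beside 0.988%, by limma. Cd74 was at -0.98 (adjusted p = 0.142) without overlap, and H2-Ab1 at -0.47 (adjusted p = 0.524). Without HSC GFP- array 1 the H2-Aa difference was -1.91 (adjusted p = 0.0202), and with the spread of the compared groups alone it did not pass (adjusted p = 0.107). Of the dendritic markers 2 fell, Tcf4 (-0.99) and Fscn1 (-0.55), and 1 T and NK cell marker, Nkg7, rose by 2.01; their part was not tested. PreMegE against PreGM GFP+ gave 0 members higher, beside 0.015% of all genes, and 0 lower, beside 0.0502%. The member with an unadjusted p under 0.05 was H2-Ab1 (0.63, 95% interval 0.06 to 1.20, adjusted p = 1), beside 764 of all 19938 genes. H2-Oa differed by -0.28 (95% interval -0.70 to 0.14) and H2-Ob by 0.31 (95% interval -0.17 to 0.79).

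**Figure D3:**
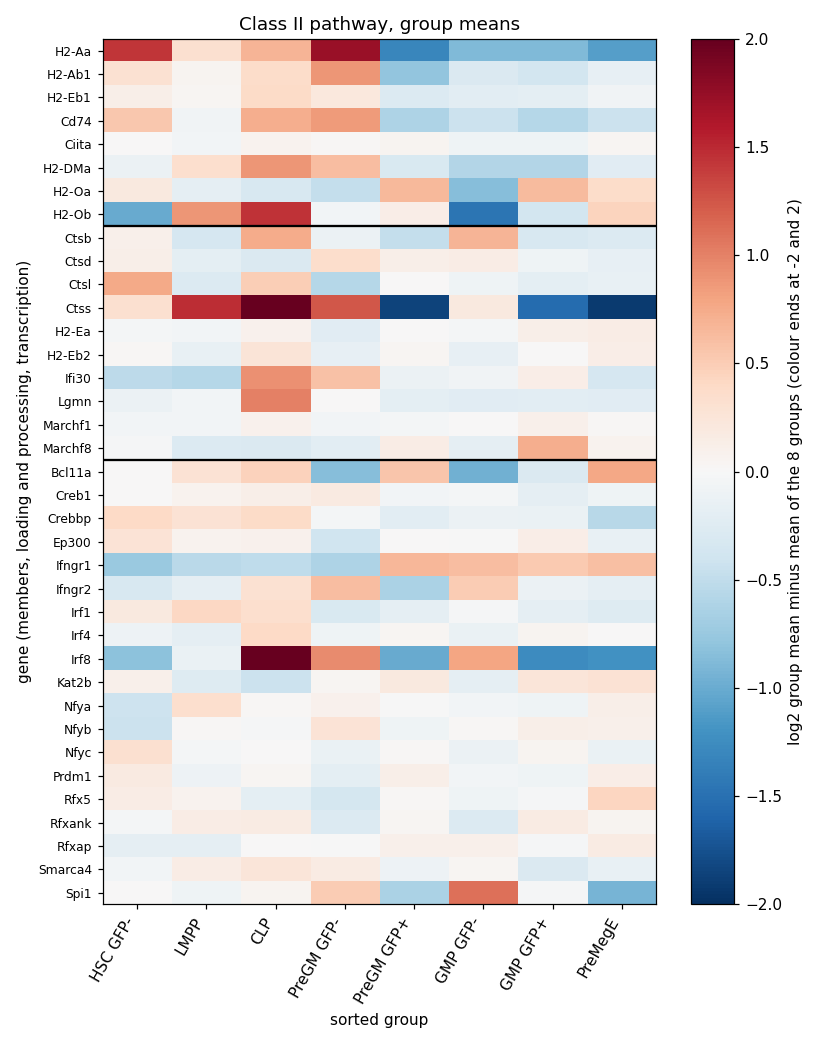
Group means of the 8 members (top block), 10 genes of class II loading and processing (middle) and 19 genes of class II transcription (bottom), each as log2 difference from the mean of the 8 groups; colour ends at -2 and 2. Ctss and Irf8 have their highest means in CLP, and both are low in PreGM GFP+, GMP GFP+ and PreMegE.

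Other genes of the pathway were taken as lists. Of 14 genes of loading and processing, 10 were measured. Ctss, cathepsin S, which trims the invariant chain, was the gene of this list called most often. It was at 10.06, 9.77 and 9.57 in PreGM GFP- and at 6.50, 6.56 and 7.08 in PreGM GFP+, and fell by 3.09 (adjusted p = 2.14e-07, limma). It was also lower with the reporter in GMP (-1.75, adjusted p = 0.000125), in PreMegE than in HSC GFP- (-2.23) and in GMP GFP- than in PreGM GFP- (-1.04), and higher in LMPP than in HSC GFP- by 1.15. In the PreGM reporter comparison 0 genes of the list rose and 1 fell, with a median of -0.10. In GMP 1 rose and 2 fell: Marchf8, a ubiquitin ligase that acts on class II molecules, was higher by 0.90 and the protease Ctsb was at -1.0. Against LMPP, 2 genes were higher in CLP, Ctsb by 1.08 and the endopeptidase Lgmn by 1.07. The medians of all genes in these comparisons were 0.04, 0.08 and 0.04. Of all genes 0.908% rose and 1.14% fell in PreGM, 3.22% rose and 4.05% fell in GMP, and 0.828% were higher in CLP than in LMPP.

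Of 20 genes of class II transcription, 19 were measured. Irf8, a factor of dendritic cell and monocyte development, was lower with the reporter in PreGM (-1.95, adjusted p = 0.000874) and in GMP (-2.05, adjusted p = 0.000117), and higher in CLP than in LMPP by 2.82 (adjusted p = 3.71e-06). Bcl11a moved the other way, being higher with the reporter by 1.41 and 0.67. Of the list 2 rose and 2 fell in PreGM, where Ifngr1, a chain of the interferon gamma receptor, was higher by 1.29 and Ifngr2, its partner, was at -1.25. In GMP 1 rose and 2 fell, with Spi1 at -1.12 (adjusted p = 0.0251), and in PreGM Spi1 was at -1.13 (adjusted p = 0.0801). Beside these counts, 0.908% of all genes rose and 1.14% fell in PreGM, and 3.22% rose and 4.05% fell in GMP. The subunits of the X and Y box factors, Rfx5, Rfxank, Rfxap, Nfya, Nfyb and Nfyc, were not among the called genes of either reporter comparison, and Nfya was higher in LMPP than in HSC GFP- by 0.74 (adjusted p = 0.00391).

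Class I presentation, which displays peptides from the cytosol, has some of its genes in the same chromosome stretch and was measured by 14 of 18 listed genes. With the reporter, 2 fell in PreGM, Calr (-0.59) and the proteasome subunit Psmb8 (-0.57), beside 1.14% of all genes, and 0 rose, beside 0.908%. In GMP Psmb8 fell by 0.43, beside 4.05% of all genes lower, and Nlrc5, the class I coactivator, rose by 0.61, beside 3.22% higher. Of the 5 other measured genes between H2-Oa and H2-Eb1 (Brd2, Psmb9, Tap1, Psmb8 and Tap2), Psmb8 passed in each reporter comparison, and Brd2, the gene next to H2-Oa, differed by -0.05 and 0.08. Of 10 genes of costimulation, which gives T cells their second signal, 0 passed in PreGM. In GMP 2 of these rose, Cd274 by 1.51 and Pdcd1lg2, below the median, by 0.48, beside the 3.22% of all genes.

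**Figure D4:**
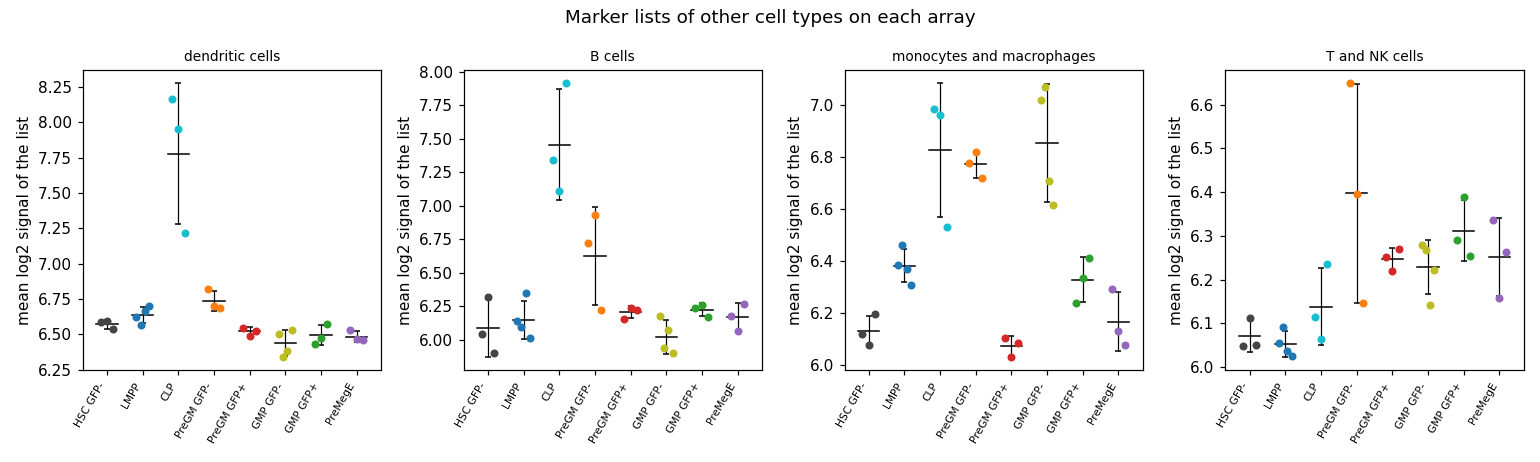
Mean log2 signal of the measured markers of dendritic cells (14), B cells (13), monocytes and macrophages (13) and T and NK cells (11) on each array by group; points are arrays, bars mean with SD, and each panel has its own vertical range. CLP arrays are highest for dendritic and B cell markers, PreGM GFP- arrays 1 and 2 stand above array 3 for B, T and NK cell markers, and the monocyte list is lower in the reporter-positive groups than in their reporter-negative partners.

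The members' likeness to each other was described by Pearson's r over the 26 arrays, which share groups and normalization. Among H2-Aa, H2-Ab1, H2-Eb1, Cd74 and H2-DMa the 10 pairs gave r from 0.68 to 0.90, with H2-Aa and Cd74 highest. After each group's mean was subtracted, r was 0.39 to 0.80 in these pairs, with Cd74 and H2-DMa highest, so these genes also varied together between arrays of a group. H2-Oa had r of -0.21 with H2-Aa and -0.35 with H2-Ab1, and H2-Oa and H2-Ob had 0.19 with each other. With group means subtracted, H2-Oa had r of 0.48 with H2-DMa, 0.43 with H2-Aa and 0.33 with Cd74. It had 0.03 with H2-Ab1 and -0.03 with H2-Eb1. Part of this variation within groups was thus shared with H2-Oa. Ciita had r between -0.02 and 0.29 with the other members.

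For each member the 5 other genes of highest r were named. For H2-Oa these were Gata2 (0.86), H2-T24 (0.84), Gfi1b, Cd55 and Itga2b (each 0.82), of which Gata2 and Gfi1b encode transcription factors of the stem, megakaryocyte, erythroid and mast cell programmes. For H2-DMa they were Tap2 (0.85), Ptp4a3 (0.84), Bcl2 (0.82), Slc9a7 (0.80) and Bst2 (0.78), and for H2-Ob Il17ra (0.83), Ppp3cc (0.82), Ikzf1 (0.81), Jakmip1 (0.80) and Maml3 (0.80). For H2-Aa they were Luzp1 (0.79), S100a4 (0.79), Myadm (0.78), Camk2d (0.77) and Prcp (0.76). H2-Ab1 had Scpep1 (0.74), S100a4 (0.72), Psmb9, Slc25a4 (each 0.71) and Sik1 (0.70), and Cd74 had Scpep1 (0.80), S100a4 (0.78), Cyth4 (0.76), Bmyc (0.74) and Ccnd1 (0.73). H2-Eb1 had Pdrg1, Ptp4a3 (each 0.77), Magee2 (0.74), Eef1akmt3 (0.72) and S100a4 (0.71). S100a4 was thus named for 4 members. For Ciita, whose signal was below the median, the genes were Lsr (0.79), Igfals, Actrt2, Rin1 (each 0.75) and Pou3f2 (0.74).

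**Figure D5:**
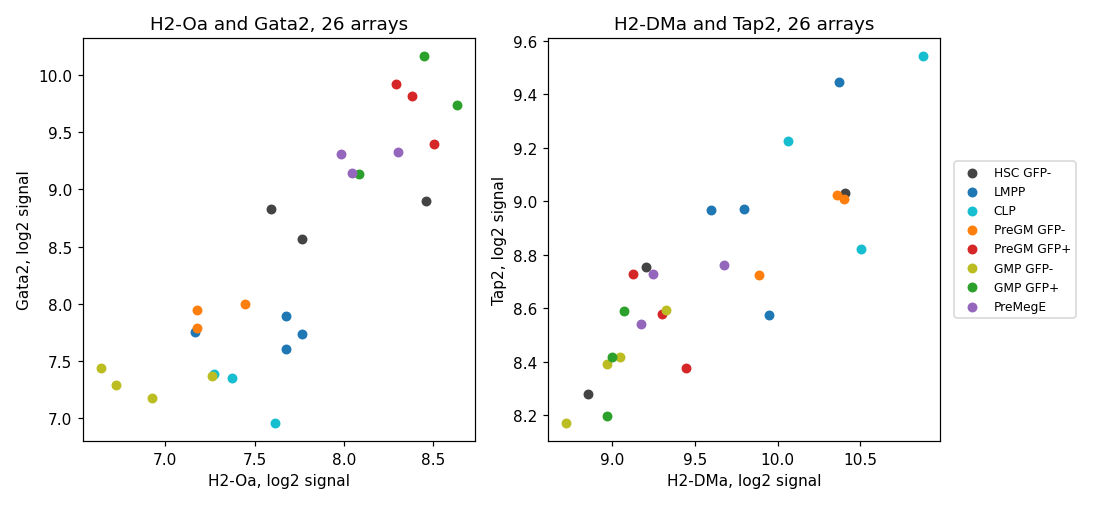
Log2 signals of H2-Oa against Gata2 (left, r = 0.86) and of H2-DMa against Tap2 (right, r = 0.85); each point is 1 of the 26 arrays, coloured by group. Reporter-positive PreGM and GMP and PreMegE lie in the upper right for H2-Oa and Gata2, GMP GFP- in the lower left, and CLP and PreGM GFP- lie to the right for H2-DMa.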

How the data were processed

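The deposited values are log2 signals of 35556 probe sets on 26 Mouse Gene 1.1 ST arrays, 1 column per sample; RMA and oligo are named in the submitters' processing notes, without versions. RMA corrects background, equalises the distribution of arrays and summarises probes, which compresses differences near background. Base 2 was taken from the range of the values. Of the probe sets, 21789 named 1 gene, and those naming several (1621) or none (12146) were left out, H2-DMb1 and H2-DMb2 among them. Groups were taken from the titles. A linear model with 1 coefficient for each of the 8 groups was fitted to all 19938 genes in limma 3.58.1 under R 4.3.3, with moderated tests and Benjamini-Hochberg adjustment over all genes; adjusted p-values under 0.05 passed. It was tested on simulated data. The number of arrays limits the precision.

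The members and the gene lists were chosen with earlier results of these data known. Named genes are the members, up to 4 called genes with the largest differences per list and comparison, the 5 genes most like each member, and Gata1, Spi1, Irf8, Bcl11a and Flt3; H2-Ea, Brd2 and the genes of its stretch, the X and Y box factors and markers that were not called are named outside this rule. Alternatives took the spread from the compared groups alone, centred arrays on their medians, used quantile normalization, array weights, a trended robust prior, a mean over probe sets, a filter on low signal or a replicate block, and left out each array in turn.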

Additional observations from a re-analysis of the deposited data

Results flagged for a closer look

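In the groups of 4 arrays, 1 array stood apart from the others for 3 of 16 combinations of member and group; chance gives about 1 in 20. H2-Eb1 was at 6.73 on GMP GFP- array 2, the lowest of its group. Cd74 was at 6.94 on LMPP array 2, the highest of its group. H2-Oa was at 7.17 on LMPP array 3, the lowest of its group.

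The reporter difference differed between the gates for H2-Aa, by 3.02 (GMP minus PreGM, limma interaction contrast, adjusted p = 0.0247), and for H2-Ab1, by 1.59 (adjusted p = 0.0491). H2-Aa had means below the median of all values in both GMP groups, and both calls were marginal.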

How the results depend on the processing

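Member differences were recomputed under the alternatives 1317 times: 1194 kept their direction and side of the threshold, 64 were no longer called, 5 became called, 0 were reversed among called values, and 54 that were uncalled in both changed sign. Counts of members called moved under these settings. With the spread taken from the compared groups alone, the count fell from 4 to 2 for the reporter in PreGM, from 2 to 1 for PreMegE against HSC GFP-, from 1 to 0 for CLP against PreGM GFP- and for PreGM GFP- against LMPP, from 5 to 3 for GMP GFP- against PreGM GFP-, and from 2 to 1 for the difference of the reporter effects. That difference also fell to 1 with arrays centred on their medians, with array weights, with a trended robust prior and with the replicate block. Array weights gave 1 member in place of 0 for CLP against LMPP, 0 for PreGM GFP- against LMPP, 2 for GMP GFP- against PreGM GFP-, 3 for the reporter in PreGM and 7 in place of 6 for the F test. Centring on the medians and quantile normalization each gave 4 in place of 5 for GMP GFP- against PreGM GFP-. Leaving out 1 array gave 2 to 5 members for GMP GFP- against PreGM GFP-, 0 to 3 for the difference of the reporter effects, 0 to 2 for PreGM GFP- against LMPP, 1 to 2 for LMPP against HSC GFP- and 3 to 4 for the reporter in PreGM. The cause of these changes in the counts was not tested.

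The labels do not say whether replicate numbers pair the samples. In no comparison were the deviations of all same-numbered arrays correlated above 0.1. Differently numbered arrays were not correlated as a reference, so pairing was not tested. PreGM GFP- against LMPP came closest, with correlations of 0.224, 0.325 and 0.0996. With the replicate block this comparison had 0 members called (H2-Ob, adjusted p = 0.0826), H2-Ab1 did not pass for the difference of the reporter effects (adjusted p = 0.086), and the reporter in PreGM had 4 called. The filter on low signal removed Ciita and left 7 members. Signals near or below the median limit what can be said of Ciita, of Cd74 and of H2-Aa in the groups where they were low.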
